A study of Mus musculus with 6 samples.

Results

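Tubular injury marker genes are the genes whose transcripts kidney epithelium is known to gain when a tubule is damaged or fails to repair. The 10 genes are named by symbol, with no threshold on a measured value, although earlier results of these data were known when they were picked: Lcn2, Clu and Spp1 code for secreted proteins, Havcr1, Vcam1 and Cd24a for proteins of the cell surface, Vim and Krt19 for intermediate filaments, Sox9 for a transcription factor and Ankrd1 for a nuclear and sarcomeric cofactor. Rows for 9 of the 10 were found among the 16095 genes of the table, and all 9 passed the filter for testing. Vim is not analysed here. RNA was sequenced from 6 mouse kidney libraries, 3 from Trf1lox/lox KFP+/t Cre+/t mice (here Terf1_flox) and 3 from Trf1+/+ KFP+/t Cre+/t mice (control). Trf1 is the protein name of Terf1, which codes for a telomere-binding subunit of shelterin. Both groups carried KspCadherin-CreERT2, a Cre that tamoxifen activates in cells using the Ksp-cadherin (Cdh16) promoter, and the reporter KFP. Male and female mice of both genotypes, 6 to 8 weeks old at the start, received tamoxifen 3 times a week for 8 weeks, so the control carries Cre and drug as well. Sorting used EpCAM staining together with the KFP signal. The labels do not tie a library to single or pooled animals, so n counts libraries and p-values measure only the spread between them.

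Injured tubule cells lose transport functions and switch on a set of secreted, adhesive and cytoskeletal genes. Lipocalin-2 (NGAL) and the HAVCR1 protein (KIM-1) are released into urine and serve as markers of acute kidney injury. VCAM-1 marks proximal tubule cells that have failed to repair, and SOX9 is switched on in cells that regrow the tubule. Osteopontin (Spp1) and clusterin also rise after injury, but mouse distal tubules contain their transcripts without injury too.

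The libraries held 13870931, 15375471 and 15263383 reads over the tabulated genes in Terf1_flox and 16069674, 13582140 and 17680986 in control. Terf1 itself had 62.0, 24.6 and 25.3 normalized counts in Terf1_flox libraries, against 529.6, 486.1 and 663.9 in control libraries, which matched the labels. A normalized count is a read count divided by a factor for the library's depth. Counts of thick ascending limb markers exceeded those of proximal tubule markers. Summed levels of 9 markers of the thick ascending limb ran from 230385 to 240835 in Terf1_flox and from 273394 to 333918 in control libraries. For 11 proximal tubule markers the sums ran from 4488 to 15204 in Terf1_flox and from 2362 to 4411 in control libraries. Sums over different genes, not corrected for transcript length, do not measure shares of cells. The 7 measured urothelial markers summed to 8894 in Terf1_flox replicate 3 and to 1682 in control replicate 1, and to between 36.9 and 174 in the other 4 libraries. The same Terf1_flox replicate 3 had 3.04 normalized counts of the Y-linked gene Ddx3y, against 123 to 951 in the other 5 libraries, while Xist, transcribed from the inactive X chromosome, ran from 1380 to 2872 over all 6.

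Over the group, Lcn2, Vcam1 and Ankrd1 lay higher and Clu lower in Terf1_flox libraries at an unadjusted limma p below 0.05, whereas Spp1, Cd24a, Sox9, Havcr1 and Krt19 did not reach that p. These 4 of 9 genes are 44.4% of the group, beside 14.1% of all 14822 genes tested (845 higher and 1250 lower). With equal library totals that split of all genes was 563 higher and 1651 lower, and with equal upper quartiles 1049 and 1032, while the direction of these 4 members stayed. None of the 9 passed in limma or in edgeR after Benjamini-Hochberg adjustment over all genes, where 0% of genes passed, so no member was called in the main test. DESeq2 on the recovered reads called Clu and Ankrd1 at an adjusted p below 0.05, 2 of the 7 members to which it gave a p, beside 5.81% of genes. The 3 libraries of each group did not overlap for 5 members, beside 21.1% of genes: 4 were higher (10.3% of genes) and Clu was lower (10.8% of genes) in Terf1_flox libraries. The median log2 fold change of the 9 members was 0.83, with 7 above and 2 below 0, beside a median of −0.08 over all genes tested. The 4 members past an unadjusted p of 0.05 became 2, Clu and Lcn2, when Terf1_flox replicate 2, control replicate 2 or control replicate 3 was left out. Leaving out both libraries with urothelial markers also gave 2, Clu and Ankrd1, and a median of 0.83.

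**Figure D1:**
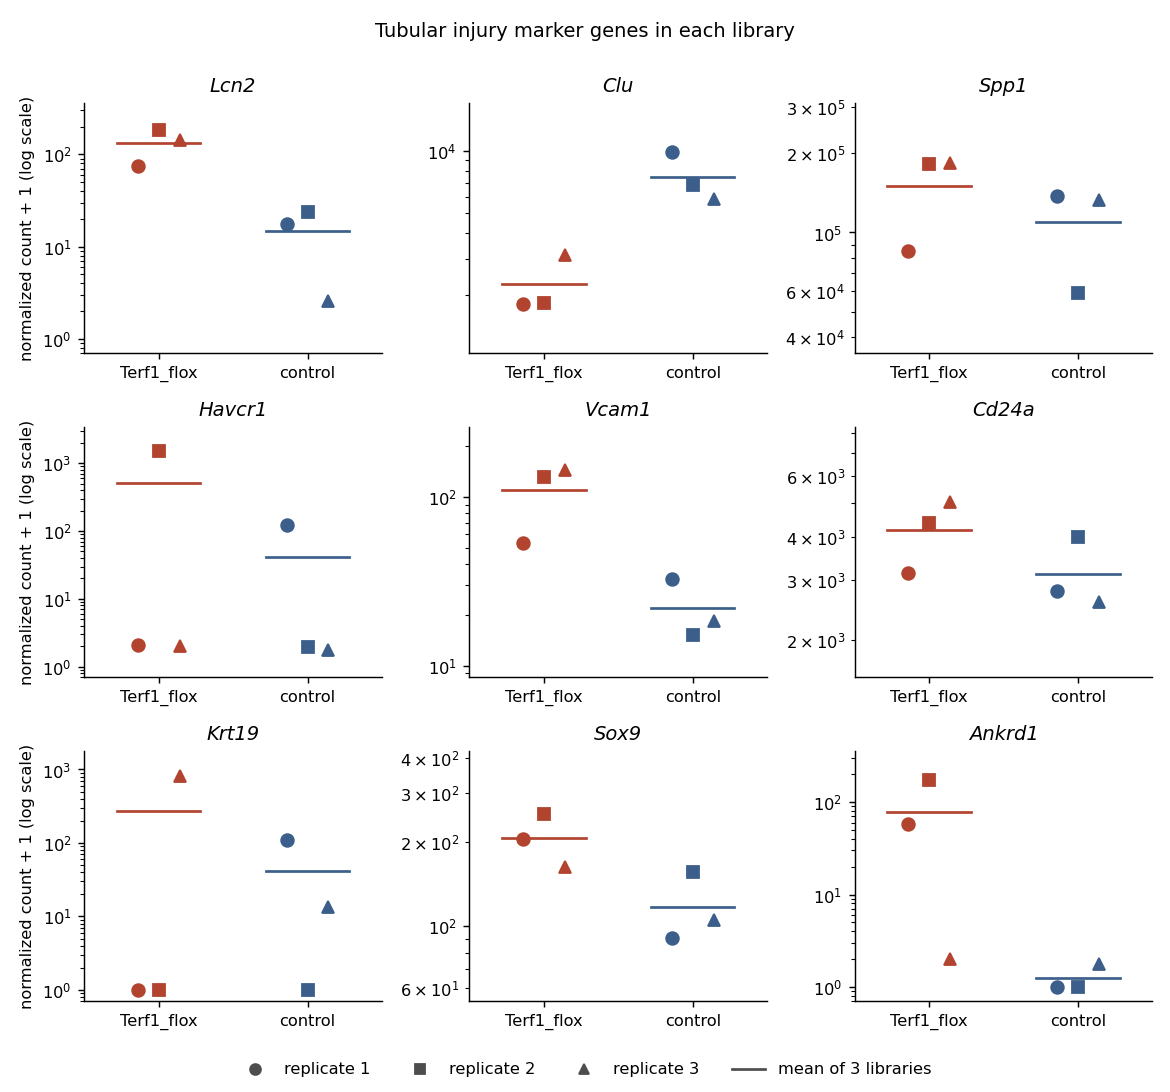
Normalized count plus 1 on a log scale (y axis, own range per panel) of each of the 9 measured injury marker genes in the 3 Terf1_flox (left, red) and 3 control (right, blue) libraries. Symbols mark replicates and lines the mean of 3 libraries; Lcn2 and Vcam1 lie higher and Clu lower in every Terf1_flox library, while Havcr1 and Krt19 are high in 1 library of each group.

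Among the secreted proteins, Lcn2 and Clu lay on opposite sides. Lcn2 codes for lipocalin-2, which binds bacterial siderophores and iron. It had 74.0, 181.7 and 141.7 normalized counts in Terf1_flox libraries, against 16.7, 22.9 and 1.58 in control libraries. Every Terf1_flox library lay above every control library, although the gene stayed scarce in both, with 68 to 177 reads in Terf1_flox and 2 to 24 reads in control libraries. The means, 132.4 ± 54.4 in Terf1_flox and 13.7 ± 10.96 in control (SD, n = 3 each), differed 9.65-fold. The log2 fold change, on the scale of log2(normalized count + 1) used for all fold changes here, was 3.60 ± 1.12 (SE), with a limma adjusted p of 0.218 over all genes and 95% limits of 1.05 and 6.15. DESeq2 gave an adjusted p of 0.0588, and over all alternatives its adjusted p ran from 0.0588 to 0.494. The log2 fold change was 2.60 without control replicate 3, which held only 2 reads, and 4.21 without control replicate 2. In bulk libraries such as these, a difference cannot be split between more cells with a transcript and more transcript per cell.

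Clu codes for clusterin, an extracellular chaperone. It went the other way, at 1811, 1834 and 3125 normalized counts in Terf1_flox libraries, against 9832, 6844 and 5831 in control libraries. All 3 Terf1_flox libraries lay below all 3 control libraries. Clu averaged 2257 ± 752 in Terf1_flox and 7503 ± 2080 in control libraries (SD, n = 3 each), 3.32-fold lower. Its log2 fold change of −1.75 ± 0.29 had 95% limits of −2.42 and −1.08 and a limma adjusted p of 0.0814. DESeq2 called it (adjusted p = 8.8e-06), as did limma with equal library totals (0.0497) and with genes of a mean of at least 50 (0.0238), in a range from 8.8e-06 to 0.410 over all alternatives. Its transcripts hold 53.8% G and C, and the comparison carried a trend with GC content, from a median log2 fold change of 0.36 in the lowest of 5 GC bins to −0.49 in the highest. With GC content and length corrected, Clu was at −1.41.

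Umod, uromodulin of the thick ascending limb, lay lower with Clu, at 63592 ± 2840 in Terf1_flox and 119814 ± 21723 in control libraries (SD, n = 3 each; limma adjusted p = 0.0814). Slc12a1 of the same segment lay higher, at 50653 ± 3712 and 36584 ± 4060 (adjusted p = 0.189). Of the 9 markers of that segment, 1 was higher and 4 lower at an unadjusted limma p below 0.05, beside 14.1% of genes. Beside 5.81% of genes, DESeq2 called 0 of them higher and 3 lower. One of these, the prostaglandin receptor Ptger3, had 1186, 1451 and 663 normalized counts in Terf1_flox, against 2879, 2674 and 2334 in control libraries (limma adjusted p = 0.150). All 9 markers of intercalated cells, the acid-base cells of the collecting duct, lay below 0, with a median of −1.63. Beside the same shares of genes, 3 had an unadjusted p below 0.05 and 2 of them were called by DESeq2. Epcam, whose protein was used in the sort, was also lower in every Terf1_flox library, at 1831, 1434 and 2977, against 4510, 5087 and 4416 in control libraries. The part of these cell types in the Clu values was not tested.

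Spp1, osteopontin, an acidic matrix protein that binds integrins, was by far the most abundant member. It ranked between 6 and 17 among all genes in the 6 libraries and took 0.566%, 1.15% and 1.19% of the reads of Terf1_flox libraries, against 0.973%, 0.455% and 0.951% in control libraries. Normalized counts were 85344, 181575 and 183139 in Terf1_flox, against 137606, 58933 and 132789 in control libraries. Within each group 1 library lay low, replicate 1 in Terf1_flox and replicate 2 in control, and the groups overlapped. The log2 fold change was 0.47 ± 0.38, with 95% limits of −0.40 and 1.33 (limma adjusted p = 0.628). It was 0.83 without Terf1_flox replicate 1, 0.07 without control replicate 2 and −0.092 with quantile normalization.

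Among surface proteins, only Vcam1 reached an unadjusted limma p below 0.05. Vcam1, the adhesion molecule that binds integrin alpha-4 beta-1 on leukocytes, had 52.2, 130.3 and 144.7 normalized counts in Terf1_flox libraries, against 31.7, 14.3 and 17.4 in control libraries. The groups did not overlap, and reads numbered 48 to 143 in Terf1_flox and 15 to 36 in control. Means were 109.1 ± 49.8 in Terf1_flox and 21.1 ± 9.27 in control libraries (SD, n = 3 each), 5.17-fold apart. The log2 fold change was 2.26 ± 0.88 with 95% limits of 0.27 and 4.26, and its limma adjusted p of 0.296 (DESeq2 0.168) missed the threshold. Endothelium also makes VCAM-1, and of 12 endothelial markers only Esam and Ehd3 were measured. Esam had 13.1, 23.6 and 55.7 normalized counts in Terf1_flox, against 141.6, 163.0 and 144.5 in control libraries. Ehd3 had 1.09, 2.05 and 5.06 in Terf1_flox, against 59.8, 4.77 and 50.5 in control libraries, and its groups overlapped. Their summed levels were 14.1 to 60.7 in Terf1_flox and 168 to 201 in control libraries. Proximal tubule markers summed to 4488 to 15204 in Terf1_flox and 2362 to 4411 in control libraries, and that gap rests on Kap, a kidney androgen-regulated transcript. Kap was at 4626, 2051 and 9437 in Terf1_flox, against 1959, 1444 and 467 in control libraries. Without Kap the other 10 measured markers summed to 1457, 2437 and 5767 in Terf1_flox, against 2452, 2159 and 1895 in control libraries, and the groups overlapped. Of 10 tested proximal markers 7 lay above and 3 below 0. At an unadjusted p below 0.05, which 14.1% of all genes reached, Kap was higher and Slc5a12, a monocarboxylate transporter, lower. Slc5a12 had 0, 1.03 and 84.0 in Terf1_flox, against 199.7, 82.9 and 70.3 in control libraries. The part of these cells in the Vcam1 result was not tested.

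Havcr1, a phosphatidylserine receptor with which injured proximal tubule cells take up dying neighbours, was present in 2 libraries and close to nothing in the rest. It had 1.09, 1530 and 1.01 normalized counts in Terf1_flox libraries, against 120.5, 0.953 and 0.789 in control libraries. Terf1_flox replicate 2 and control replicate 1 thus held 1491 and 137 reads, and each of the other 4 libraries a single read, under a floor of 3 reads. The spread within groups, an SD of 4.61 log2 units, was larger than that of 99.9% of the genes tested. The log2 difference was 1.31 ± 2.78, with an adjusted p of 0.868 in limma, and −1.87 without Terf1_flox replicate 2. Timd2, a related TIM family gene singled out after its values were seen, had 2.18, 168 and 2.02 normalized counts in Terf1_flox, against 2.64, 1.91 and 0 in control libraries, high in the same Terf1_flox library. The proximal tubule phosphate transporter Slc34a1, also singled out afterwards, did not set that library apart, at 142, 249 and 461 in Terf1_flox, against 258, 288 and 111 in control libraries.

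Cd24a codes for a small glycosylphosphatidylinositol-anchored glycoprotein that binds Siglec receptors. It had 3141, 4375 and 5054 normalized counts in Terf1_flox libraries, against 2781, 4000 and 2576 in control libraries. Terf1_flox replicate 1 lay below control replicate 2, so the groups overlapped. It was the steadiest member: its within-group SD of 0.35 log2 units was larger than that of only 12.2% of genes. The log2 fold change of 0.43 ± 0.27 (limma adjusted p = 0.516) had 95% limits of −0.18 and 1.03, and it ran from 0.21 to 0.62 over the alternatives.

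**Figure D2:**
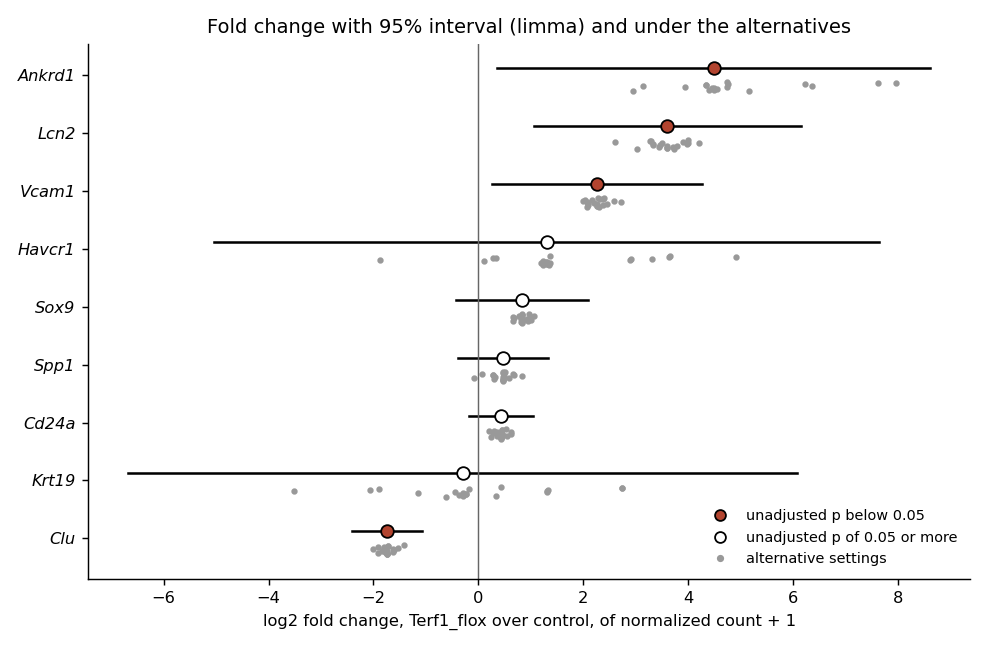
Log2 fold change of Terf1_flox over control (x axis) for the 9 members, with 95% limits from limma as black lines; filled circles have an unadjusted p below 0.05 and grey dots are the alternative settings. Ankrd1, Lcn2 and Vcam1 stay above 0 and Clu below 0 in all of them, whereas Havcr1, Krt19 and Spp1 fall on both sides.

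The keratin Krt19, which simple epithelia and urothelium use and which injured tubules take up, was patchy. It had 0, 0 and 802.5 normalized counts in Terf1_flox libraries, against 109.1, 0 and 12.6 in control libraries. With 793 reads in Terf1_flox replicate 3, 124 in control replicate 1 and 16 in control replicate 3, the gene was listed at 0 in the other 3 libraries. The log2 fold change was −0.30 ± 2.80 (limma adjusted p = 0.975), and its sign changed with the setting: 1.33 without control replicate 1, −3.52 without Terf1_flox replicate 3 and 0.34 with a pseudocount of 5. The urothelial plaque gene Upk3a took the same 2 high libraries, with 0, 0 and 4489 normalized counts in Terf1_flox, against 866, 0.953 and 0 in control libraries. Psca, a surface antigen of urothelium, had 2.18, 1.03 and 2952 in Terf1_flox, against 378, 0.953 and 0 in control libraries. Not every marker followed. Trp63 had 5.44, 2.05 and 4.05 in Terf1_flox, against 2.64, 37.2 and 44.2 in control libraries. Upk1a, at 162, 22.6 and 453 in Terf1_flox, against 323, 21.0 and 6.32 in control libraries, was also raised in Terf1_flox replicate 1, where Krt19 was 0. Of the 10 urothelial markers listed, 7 were measured, and the share of urothelial cells in the Krt19 values was not tested.

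**Figure D3:**
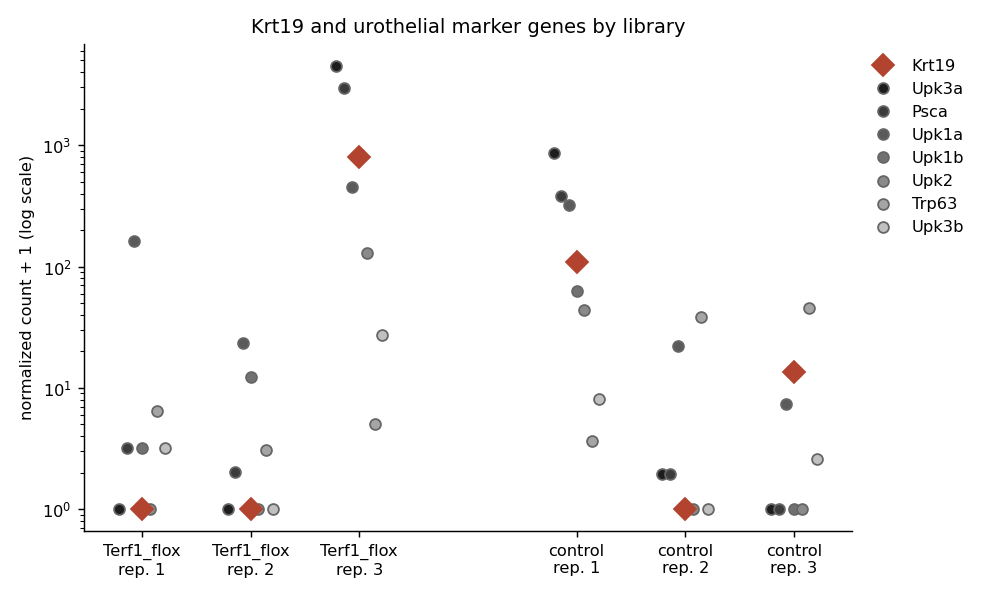
Normalized count plus 1 on a log scale (y axis) of Krt19 (red diamonds) and 7 urothelial marker genes (grey circles) in each library (x axis). Krt19 was highest in Terf1_flox replicate 3 and control replicate 1, where the urothelial markers summed to 8894 and 1682; in Terf1_flox replicate 3 the diamond covers Upk1b (841).

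Other intermediate filament and desmosome genes lay on both sides of 0. Of 11 tested intermediate filament and desmosome genes, 1 lay higher and 1 lower at an unadjusted p below 0.05, beside 14.1% of all genes. These were Krt10, higher (1654 ± 385 in Terf1_flox and 729 ± 143 in control libraries, SD, n = 3 each), and Krt7, lower (1138 ± 870 and 2590 ± 489). Neither passed in limma over all genes (adjusted p = 0.183 and 0.312). Krt18, the partner of Krt8 in simple epithelia and named after its values were seen, had 97.9, 13.3 and 1368 normalized counts in Terf1_flox, against 413, 202 and 459 in control libraries. Its highest value was thus in the library highest for Krt19.

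The nuclear members were Sox9 and Ankrd1. Sox9, the transcription factor of tubule regeneration, had 204.5, 251.4 and 161.9 normalized counts in Terf1_flox libraries, against 89.7, 155.4 and 104.2 in control libraries. The groups did not overlap, but the lowest Terf1_flox value, 161.9, was close to the highest control value, 155.4. Sox9 averaged 206.0 ± 44.8 in Terf1_flox and 116.4 ± 34.5 in control libraries (SD, n = 3 each), 1.77-fold apart, and the log2 difference of 0.83 ± 0.55 had 95% limits of −0.42 and 2.09 and an adjusted p of 0.536 in limma. Among 13 tested genes of the SOX9 circuit, such as the Wnt co-receptor Lgr4 (log2 fold change 0.71), the median was −0.19. None had an unadjusted p below 0.05 in limma, beside 14.1% of all genes, and none was called by DESeq2, beside 5.81%.

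Ankrd1 codes for an ankyrin repeat protein and is a widely used target of the coactivators YAP and TAZ, which act through TEAD factors. It had 56.6, 172.4 and 1.01 normalized counts in Terf1_flox libraries, against 0, 0 and 0.789 in control libraries. Terf1_flox replicates 1 and 2 carried 52 and 168 reads, while Terf1_flox replicate 3 and control replicate 3 carried 1 read each, so the lack of overlap in this gene rests on the scaling of single reads. The reads summed to 221 in Terf1_flox and 1 in control libraries, a ratio of 265 per depth with an exact 95% interval from 47.0 to 10505 that covers counting error only. On the log2 scale the difference was 4.48 ± 1.82, and limma gave an adjusted p of 0.318. DESeq2 called it (adjusted p = 0.0083), in a range from 0.0083 to 0.526 over the alternatives, and it was 3.15 without Terf1_flox replicate 2 and 6.36 without Terf1_flox replicate 3.

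Promoter sequences were at hand for 4 of the 9 members in RefSeq (build GRCm38.p6). The 250 bases upstream of the annotated start of Ankrd1 (chr19:36119845-36120094, minus strand) and of Lcn2 (chr2:32387740-32387989, minus strand) are shown because these members had the highest fitted fold changes. Their patterns parted in Terf1_flox replicate 3, where Lcn2 was at 141.7 and Ankrd1 at 1.01. Both are written along the gene's strand. Capitals mark CATTCC on either strand, the core letters bound by TEAD factors, read here as GGAATG.
Ankrd1: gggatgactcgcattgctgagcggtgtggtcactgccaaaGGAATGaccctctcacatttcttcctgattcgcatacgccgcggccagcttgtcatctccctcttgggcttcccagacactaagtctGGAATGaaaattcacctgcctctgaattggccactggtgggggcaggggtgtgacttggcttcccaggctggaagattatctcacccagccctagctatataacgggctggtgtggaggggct
Lcn2: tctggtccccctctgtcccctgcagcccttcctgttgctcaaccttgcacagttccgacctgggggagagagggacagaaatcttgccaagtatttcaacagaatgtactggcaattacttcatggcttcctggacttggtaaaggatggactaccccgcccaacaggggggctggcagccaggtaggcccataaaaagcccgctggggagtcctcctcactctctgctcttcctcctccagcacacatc

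The Ankrd1 window held the TEAD letters at 2 places, from base −210 to −205 and from −123 to −118 relative to the start. At least 1 such match stood in 12.6% of 32851 RefSeq windows of that length, and 2 or more in 1.02%. The Lcn2 window held no match to CATTCC. It also held none to TGANTCA (AP-1, in 6.75% of windows), TTCNNNGAA (STAT, 7.02%), TATAAA (12.4%), the NF-kB consensus (5.0%) or 1 decamer of the p53 site (7.13%), all searched on both strands. A match is a run of letters, and no binding was measured.

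Of 21 other YAP and TEAD pathway genes tested, 0 had an unadjusted p below 0.05 in limma, beside 14.1% of all genes. DESeq2 called 0 of them, beside 5.81% of genes, and their median log2 fold change was 0.26. The part of this pathway in the Ankrd1 values was not tested. Ccn2, the secreted matricellular target CTGF, had 20.7, 35.9 and 30.4 normalized counts in Terf1_flox libraries, against 5.28, 9.53 and 1.58 in control libraries (log2 fold change 2.40 ± 1.16, limma adjusted p = 0.398). The groups did not overlap at these low counts. Nt5e, the ecto-enzyme CD73, had 3.26, 4.11 and 48.6 in Terf1_flox, against 12.3, 95.3 and 130 in control libraries (−2.43 ± 1.41). Axl, a receptor tyrosine kinase, had 0, 259 and 52.6 in Terf1_flox, against 8.80, 1.91 and 0 in control libraries.

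Levels can be set beside each other only per length of transcript. The length used was the median over all annotated protein-coding transcripts of a gene, 827.5 bases for Clu and 1279.5 for Cd24a. Which transcripts the cells used was not measured, so levels per kilobase, and the order of Clu and Cd24a, depend on these lengths. Per kilobase, Spp1 led in both groups, at 106397 ± 39727 in Terf1_flox and 77855 ± 31275 normalized counts per kilobase in control libraries (SD, n = 3 each). In Terf1_flox libraries Cd24a (3275 ± 758 per kilobase) and Clu (2727 ± 909) followed with overlapping ranges, whereas in control libraries Clu (9067 ± 2514) stood above Cd24a (2438 ± 602) with no overlap. The order of means below them in Terf1_flox was Havcr1, Krt19, Lcn2, Sox9, Vcam1 and Ankrd1, and of these neighbours only Lcn2 and Sox9 did not overlap. Havcr1 (0.562, 790 and 0.522 per kilobase) and Krt19 (0, 0 and 509) owe their places to 1 library each. In control libraries it was Sox9, Krt19, Havcr1, Lcn2, Vcam1 and Ankrd1, where neighbours overlapped except Vcam1 (8.34 ± 3.66 per kilobase) and Ankrd1 (0.137 ± 0.237).

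A broader list of 24 tested injury and failed-repair genes lay on both sides of 0. Its median log2 fold change was −0.21, with 11 above and 13 below 0, and 4 higher and 3 lower in Terf1_flox libraries at an unadjusted p below 0.05, beside 14.1% of all genes, and none passed in limma over all genes. The 3 with the smallest p were all S100 calcium-binding proteins and all higher. S100a11 had 2989, 2968 and 4564 normalized counts in Terf1_flox libraries, against 1375, 1399 and 989 in control libraries (log2 fold change 1.47 ± 0.28, limma adjusted p = 0.0945). DESeq2 called it (adjusted p = 0.0001). S100a10 had 2024, 2413 and 2283, against 1069, 1555 and 1309 (0.79 ± 0.26, limma adjusted p = 0.233). S100a6 had 126, 1198 and 2357, against 214, 0 and 0 (6.89 ± 2.08, limma adjusted p = 0.207), and its groups overlapped. The 3 lower genes, named after their values were seen, were Plin2, Tpm1 and Cdkn1a. Their log2 fold changes were −3.25 ± 1.33, −0.98 ± 0.39 and −1.22 ± 0.51 (limma adjusted p = 0.323, 0.314 and 0.329). The groups overlapped for Plin2 but not for Tpm1 and Cdkn1a.

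**Figure D4:**
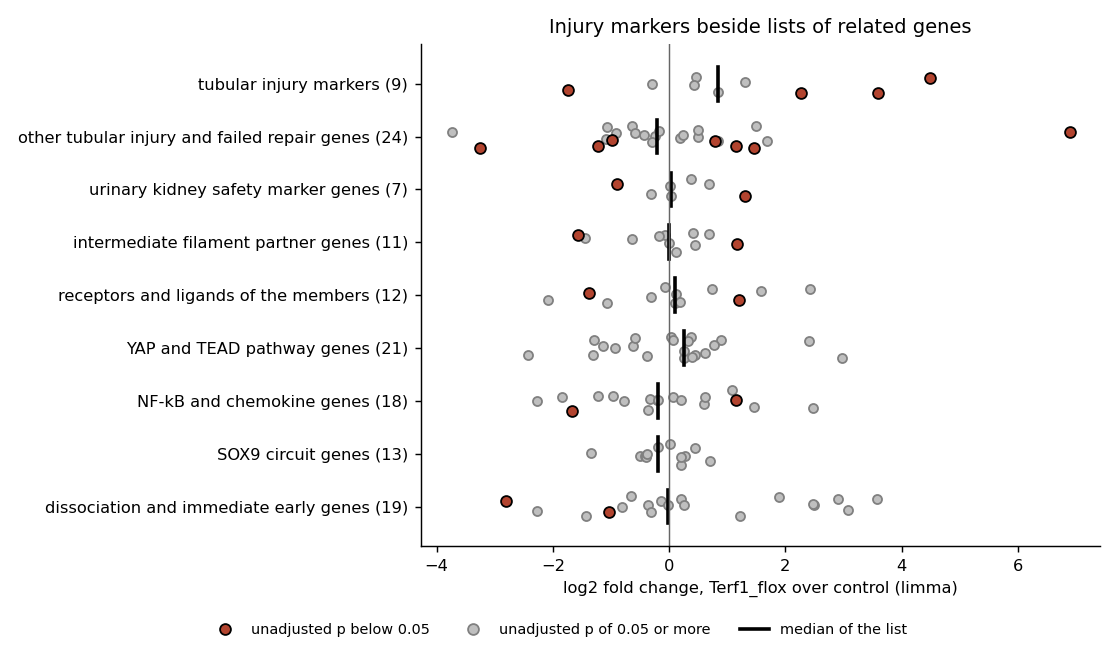
Log2 fold change of Terf1_flox over control (x axis) of every tested gene in the injury marker group and in 8 lists of related genes (rows, number of genes in brackets), with black bars for list medians and red points for an unadjusted limma p below 0.05. The injury markers have a median of 0.83, and the other lists between −0.21 and 0.26.

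Genes whose products are measured in urine as signs of kidney damage went both ways. B2m, the light chain of class I major histocompatibility molecules, had 4249, 3424 and 4891 normalized counts in Terf1_flox libraries, against 1835, 1383 and 1870 in control libraries. The log2 difference of 1.30 ± 0.25 had an adjusted p of 0.0931 in limma and 0.000117 in DESeq2. Umod, named above, lay lower, and the median of the 7 tested genes was 0.04.

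Binding partners of the members were measured in 12 cases. Itgav, the alpha-v integrin chain that pairs in receptors for osteopontin, had 4186, 7146 and 2794 normalized counts in Terf1_flox libraries, against 1544, 2613 and 1679 in control libraries (log2 fold change 1.21 ± 0.37, limma adjusted p = 0.213, DESeq2 adjusted p = 0.0129). Itgb5, a beta chain that pairs with it, lay lower, with 302, 270 and 248 in Terf1_flox, against 585, 668 and 899 in control libraries (−1.37 ± 0.37, limma adjusted p = 0.186, DESeq2 adjusted p = 0.026). Neither pair of groups overlapped. Lrp2, megalin, which takes up filtered lipocalin-2, was at 294, 241 and 964 in Terf1_flox, against 354, 252 and 27.6 in control libraries.

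NF-kB signalling is a pathway known to induce Lcn2 and Vcam1, and its part in their values was not tested. Of 18 tested genes of this pathway and its chemokines, 1 lay higher and 1 lower at an unadjusted p below 0.05. That share was near the 14.1% of all genes. Chuk, the kinase IKK-alpha, had 2963, 2400 and 1913 normalized counts in Terf1_flox libraries, against 881, 1338 and 1033 in control libraries (log2 fold change 1.16 ± 0.29, limma adjusted p = 0.149, DESeq2 adjusted p = 0.00668). Nfkbib, an inhibitor of NF-kB, had 83.8, 174 and 39.5, against 171, 361 and 310 (−1.67 ± 0.70, limma adjusted p = 0.331). The median of the 18 was −0.20. Immediate early genes, which cell dissociation can induce, had 2 of 19 lower and 0 higher at that p, near the 14.1% of all genes. Their median was −0.02, with 9 above and 10 below 0, and DESeq2 called 1 higher and 1 lower, beside 5.81% of genes. Their summed level was 4487 to 4992 in Terf1_flox and 5011 to 5353 in control libraries.

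By Pearson correlation of the log2 values over the 6 libraries, given as a description, Lcn2 and Vcam1 were the most alike pair of members (r = 0.85) and Clu and Sox9 the most opposed (r = −0.895). Among all genes with a mean of at least 50, the closest to Lcn2 was Pik3ip1 (r = 0.997), to Clu Srp68 (0.993), to Vcam1 Saysd1 (0.996), to Sox9 Kctd12 (0.995) and to Cd24a Slc4a7 (0.962). The closest to Spp1 was Tsix, the antisense partner of Xist (0.997), with 8.70, 132 and 163 normalized counts in Terf1_flox and 57.2, 2.86 and 45.8 in control libraries. No source used here states whether counting used strand, so reads of Tsix and Xist may be mixed. Each of these is the highest of 10762 genes compared over only 6 libraries.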

How the data were processed

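RNA of sorted kidney epithelial cells was sequenced in 6 libraries, prepared from polyadenylated RNA with a low-input kit per the labels' protocols. The authors deposited 1 table of signal values, normalized counts per gene. Per the submitters' processing notes DESeq2 and the build GRCm39 were used; for the aligner, counter and annotation, the name is not given in the sources used. Each value was a read count divided by a factor for its library: 100% of values came out as whole reads within 0.01 read. Libraries held 13582140 to 17680986 reads, and intervals on reads cover counting error only.

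From these values, log2(normalized count + 1) was fitted for 14822 genes averaging 10 or more normalized counts with limma 3.58.1 (R 4.3.3, variance trended on level) on both groups, with no covariate, and p-values were adjusted by Benjamini-Hochberg over all genes tested. On the recovered reads, edgeR 4.0.16 called 0 genes and DESeq2 1.42.0 called 772 of 13278. The exact 2-sided permutation test of 3 against 3 libraries cannot go below 0.1, its value for Lcn2, Clu, Vcam1, Sox9 and Ankrd1. Lengths and GC content were medians over the GENCODE transcripts of a gene, found for 14654 tested genes. Promoters came from RefSeq (GRCm38.p6) by gene symbol.

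Members and lists were chosen with earlier results of these data known. Named were all members, up to 3 genes per list with the smallest p, and defining genes of other cell types; exceptions are marked. Alternatives changed the pseudocount, filter, scaling, tool, covariates, GC correction and libraries. One, leaving out both libraries with urothelial markers, was chosen after seeing the data.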

Additional observations from a re-analysis of the deposited data

How the results depend on the processing

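Over 20 alternatives, 170 of 179 member values kept their direction, and 9 reversed in 3 members. The reversals were Spp1 with quantile normalization (−0.092), Havcr1 when single libraries were left out (−1.87 to 3.31), and Krt19 with a pseudocount of 5 (0.34), edgeR (2.73), DESeq2 (2.74), GC content and length corrected (0.44) or single libraries left out (−3.52 to 1.33). Genes called were 132 among genes averaging 50 or more, 45 under equal totals, 8 with quantile normalization and 772 with DESeq2, against 0 in limma as reported. Members called were 1 (Clu) in each of the first 2 and 2 with DESeq2. Members with an unadjusted p below 0.05 were 2 among genes averaging 50 or more, 2 without the libraries with urothelial markers, and 2 to 4 when single libraries were left out. The members' median was 2.38 with edgeR and 2.39 with DESeq2, 0.48 with array weights, and 0.62 to 1.33 with single libraries left out. The median of 9 was 1 member's value: Sox9 in the main fit, Vcam1 with edgeR and DESeq2, and Cd24a with array weights. With edgeR, Krt19 moved from −0.30 to 2.73 and Havcr1 from 1.31 to 3.64. Havcr1 was at 0.10 with array weights. Why these genes moved was not tested. Equal totals moved the median of all genes to −0.24, against −0.08.

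Replicate numbers gave no sign of pairing: deviations of same-numbered libraries correlated at −0.0486, 0.000129 and −0.00694. Not every library correlated best with its own number. Such correlations see only shared deviations in transcript levels, so they cannot show whether libraries were handled in pairs. With a replicate block, 3 members had an unadjusted p below 0.05 and 0 were called. Low counts limit Lcn2, Vcam1 and Ankrd1.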

Other observations

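Cdh6, a cadherin of the developing proximal tubule, had 393, 395 and 573 normalized counts in Terf1_flox libraries, against 164, 215 and 229 in control libraries. It was chosen after its values were seen. Its log2 fold change was 1.15 ± 0.43 (SE), and the groups did not overlap. Ier2, an immediate early gene, averaged 47.0 ± 16.9 in Terf1_flox and 320 ± 31.7 in control libraries (SD, n = 3 each; limma adjusted p = 0.125, DESeq2 adjusted p = 0.00178). Atf3, a stress transcription factor, had 16.3, 172 and 2.02 in Terf1_flox, against 1.76, 0.953 and 0 in control libraries (limma adjusted p = 0.391, DESeq2 adjusted p = 0.0385), its highest value being in the Terf1_flox library that held Havcr1.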
